A study of Rattus norvegicus with 2 samples.

Results

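The genes described here are 9 effectors of tuft cells and type 2 immunity: Alox5, Alox5ap, Ltc4s, Ptgs1, Ptgs2, Hpgds, Il25, Il17rb and Chat. They were taken by gene symbol, with earlier results of these data known, and each symbol matched 1 row among the 32883 genes of the count tables. Their UMIs were read in droplet-based single-cell RNA sequencing (scRNA-seq) of the jejunal epithelium of 2 rats, in every barcode with over 1000 UMIs and at most 40% mitochondrial UMIs. A UMI (unique molecular identifier) tags 1 captured transcript and keeps its amplified copies from being counted again. This left 14868 of 20285 barcodes, and in them tuft, other epithelial and immune cells were compared.

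Cysteinyl leukotrienes and prostaglandins are eicosanoids, lipid mediators that cells make on demand from arachidonic acid. In leukotriene synthesis, 5-lipoxygenase (Alox5) works with its membrane partner FLAP (Alox5ap), and leukotriene C4 synthase (Ltc4s) then joins the product to glutathione. In prostaglandin synthesis, the cyclooxygenases Ptgs1 and Ptgs2 make a common precursor, which the hematopoietic prostaglandin D synthase (Hpgds) turns into prostaglandin D. Tuft cells are rare chemosensory cells of the gut lining. In mice they are known to release the cytokine interleukin-25 (Il25) and cysteinyl leukotrienes when worms or protists are present, which act on innate lymphoid cells and start type 2 immunity. Il17rb encodes the chain of the interleukin-25 receptor that binds the cytokine, and Chat encodes choline acetyltransferase, which makes acetylcholine.

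Each rat gave 1 library, with no second condition. The animals were male Sprague-Dawley rats, an outbred strain, of 6 to 8 weeks and 180 to 200 g, fasted overnight, and the proximal jejunal epithelium was released with EDTA and dissociated with dispase. Rat 1 had 9345 retained cells with a median of 9687 UMIs, and rat 2 had 5523 with a median of 4077 UMIs. The libraries share 28 barcodes, of which 15 were retained in both. The headers of the count matrices name Cell Ranger 3.1.0 for rat 1 and version 5.0.1 for rat 2. The effects of program and animal cannot be told apart. Every level below is given for each rat, as UMIs of the gene per 1000000 UMIs of the cells (CPM), with n = 2 rats.

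Cells were grouped by clustering that left the 9 genes out of the genes used, and clusters were named from markers other than these genes. The tuft-like cluster held 137 cells of rat 1 (1.47% of its retained cells) and 187 of rat 2 (3.39%), with a median of 3440 and 6981 UMIs per cell. All 11 of the 11 tuft markers in the files, which also gave the cluster its name, had UMIs in it in each rat. Among them were Dclk1, Trpm5, Pou2f3 and Gnat3. They summed to 8585 and 10324 CPM there, against 5.72 and 9.03 CPM in enterocyte-like cells. The highest sums elsewhere were 1048 CPM in myeloid-like and 317 CPM in CHE-like cells, both of rat 2. The other epithelial cells were 5964 in rat 1 and 2052 in rat 2, in enterocyte-like, stem/cycling-like, goblet/Paneth-like, enteroendocrine-like (EEC-like) and CHE-like classes. CHEs, or CFTR high expressers, are a rare rat epithelial cell type rich in the chloride channel Cftr. The immune cells were 1846 in rat 1 and 2604 in rat 2, in T cell-like, NK/ILC-like, B cell-like and myeloid-like classes. Small classes limit what can be seen: rat 1 had 10 CHE-like, 18 myeloid-like and 3 B cell-like cells, and the B cell-like class entered no test. The stem/cycling-like class of rat 2 was mixed, with Ptprc (Cd45) UMIs in 70.5% of its 146 cells and Epcam UMIs in 51.4%, and leaving out its cells poor in epithelial markers changed no call among the 9 genes. The 18 myeloid-like cells of rat 1 were mixed too: stromal or endothelial markers summed to 3998 CPM in them and myeloid markers to 3349 CPM, with Ptprc UMIs in 16.7% of the cells and Epcam UMIs in 50%. In the 72 of rat 2 the sums were 39.0 and 9616 CPM, with Ptprc UMIs in 66.7% of the cells and Epcam UMIs in 27.8%. In T cell-like and NK/ILC-like cells 31.0% to 56.0% had a UMI of the epithelial gene Epcam, by class and rat, and the part of free RNA and of doublets in this was not tested.

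To show the regulatory sequence next to the data, the 250 bases before the annotated start of 3 of the genes are printed, 1 each from the leukotriene, prostaglandin and interleukin-25 groups. They come from RefSeq on the GRCr8 assembly, and the counts were made on rn6, an older build. RefSeq sequences were matched for 6 of the 9 genes. The windows lie on chr4:151251127-151251376 (minus strand) for Alox5, chr3:39981169-39981418 (plus strand) for Ptgs1 and chr16:5200658-5200907 (minus strand) for Il17rb, and each reads 5′ to 3′ toward the start.
Alox5: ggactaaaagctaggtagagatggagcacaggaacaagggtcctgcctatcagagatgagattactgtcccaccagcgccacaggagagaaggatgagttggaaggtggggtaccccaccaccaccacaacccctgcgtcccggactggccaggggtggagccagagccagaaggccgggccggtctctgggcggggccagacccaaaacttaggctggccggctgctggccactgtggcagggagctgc
Ptgs1: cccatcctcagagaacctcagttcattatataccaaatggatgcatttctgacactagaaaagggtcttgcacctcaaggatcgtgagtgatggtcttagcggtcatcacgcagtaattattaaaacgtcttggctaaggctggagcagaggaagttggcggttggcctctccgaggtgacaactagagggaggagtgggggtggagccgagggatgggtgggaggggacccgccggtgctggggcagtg
Il17rb: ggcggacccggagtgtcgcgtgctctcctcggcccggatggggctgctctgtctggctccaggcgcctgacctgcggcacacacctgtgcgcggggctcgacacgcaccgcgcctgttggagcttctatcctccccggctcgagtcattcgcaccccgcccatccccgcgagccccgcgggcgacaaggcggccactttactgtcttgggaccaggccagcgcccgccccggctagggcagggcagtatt
G and C made up 62.8% of the bases of the Alox5 window, 54.4% of the Ptgs1 window and 71.2% of the Il17rb window, against a median of 52% over 27457 rat promoters. The octamer ATGCAAAT, the motif bound by POU factors such as the tuft regulator Pou2f3, was searched on both strands. It was in none of the 6 windows and in 412 of the 27457 promoters (1.50%), so no base is in capitals. Absence from these windows says nothing about the factor.

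All 9 genes were higher in tuft-like cells than in the other epithelial classes (edgeR, quasi-likelihood test with Benjamini-Hochberg adjustment over all genes tested, adjusted p = 9.3e-08 to 0.0027). Of all 10723 genes tested in this comparison, 6.57% were called, 5.84% higher and 0.727% lower. The cells are the same ones that were clustered, so the p-values do not cover the choice of the clusters. In each rat every one of the 9 genes had a higher level in the tuft-like class than in any other epithelial class. Where another class had 0 UMIs the limit of 3 counts was also below the tuft-like level, except for Il25 and Chat in the CHE-like class of rat 1 and the EEC-like class of rat 2, which are too shallow to tell. Against all other epithelial cells pooled, the ratio of CPM ranged from 122 to 1164 over genes and rats where UMIs on both sides allowed a ratio.

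**Figure D1:**
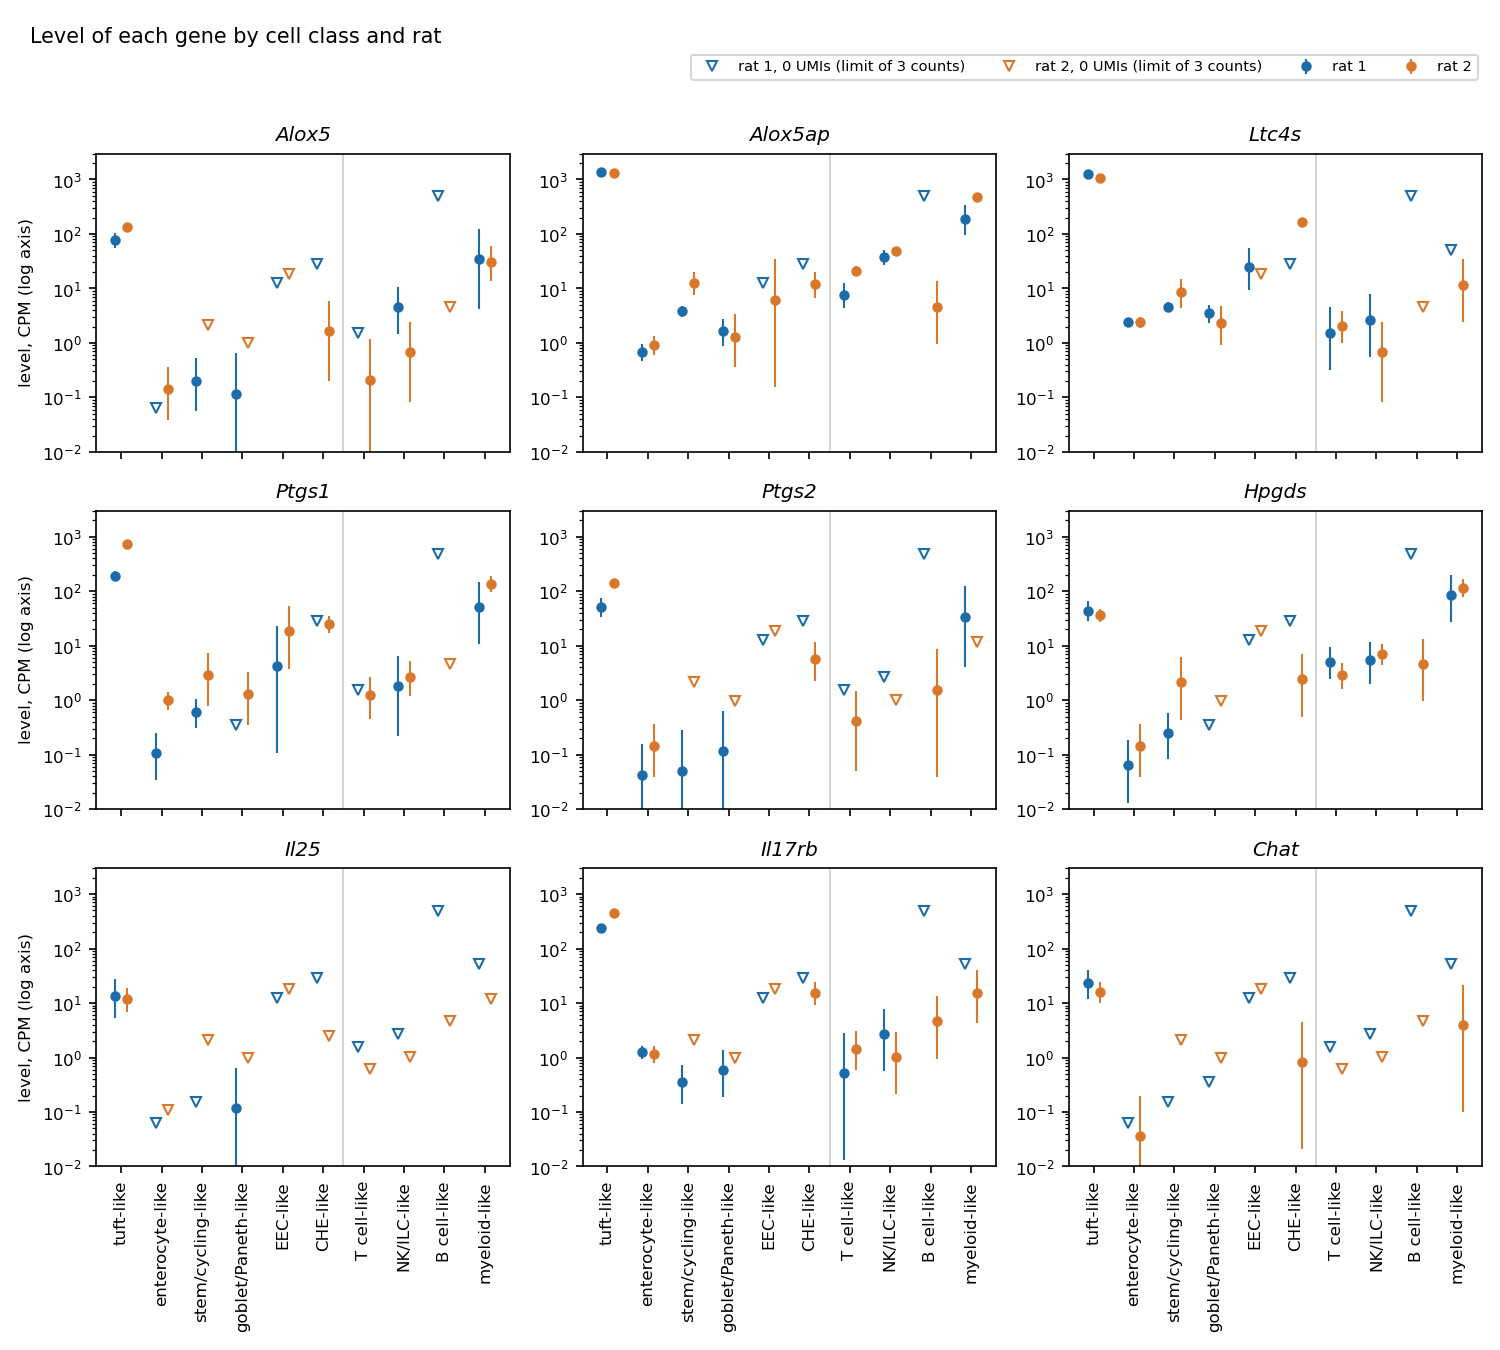
Level of each of the 9 genes (CPM, log axis) by cell class, for rat 1 (blue) and rat 2 (orange), with epithelial classes left and immune classes right of the grey line. Bars are exact 95% Poisson intervals that cover counting error only, and open triangles mark classes with 0 UMIs at the limit of 3 counts. The tuft-like class is highest among the epithelial classes with UMIs in every panel, and the myeloid-like class comes next for Alox5ap, Ptgs1 and Alox5 and lies above it for Hpgds.

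Among the leukotriene genes, Alox5ap, which hands arachidonic acid to the lipoxygenase, stood in tuft-like cells at 1369.5 CPM in rat 1 (711 UMIs) and 1299 CPM in rat 2 (1853 UMIs). Across the other epithelial classes it ranged from 0 to 12.8 CPM. The 2 rats differed by less than the counting error, at a ratio of rat 2 to rat 1 of 0.949 (95% interval 0.869 to 1.04). The log2 fold change of tuft-like against other epithelial classes was 8.53 ± 0.48 (SE, edgeR adjusted p = 9.3e-08).

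Ltc4s, the enzyme that commits the pathway to cysteinyl leukotrienes, stood at 1240.5 CPM (644 UMIs) and 1046 CPM (1492 UMIs). Here rat 2 was slightly below rat 1 (ratio 0.843, 0.768 to 0.926). Its log2 fold change was 6.69 ± 0.61 (edgeR adjusted p = 6.0e-06). Ltc4s UMIs were also found in CHE-like cells of rat 2 and in some enterocytes, as described further on. Alox5, the lipoxygenase itself, was measured at 77.0 CPM (40 UMIs, 95% interval 55.0 to 105) and 136 CPM (194 UMIs, 118 to 157), higher in rat 2 by a ratio of 1.77 (1.25 to 2.55). Outside the tuft-like class 11 UMIs of Alox5 were found in epithelial cells, 5 in rat 1 and 6 in rat 2, which put the tuft-like level at 1164 and 767 times that of the pooled other epithelial cells (459 to 3778 and 346 to 2117). Lta4h, which takes the same intermediate to leukotriene B instead, did not follow these genes. It was at 40.5 and 31.5 CPM in tuft-like cells against 172 and 155 CPM in enterocyte-like cells, a log2 difference of -1.06 ± 0.59 from the other epithelial classes that did not pass the threshold (edgeR adjusted p = 0.417).

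Among the prostaglandin genes, Ptgs1, the cyclooxygenase usually made without a stimulus, stood at 195 CPM in rat 1 (101 UMIs) and 736 CPM in rat 2 (1050 UMIs). This was the largest difference between the rats among the 9 genes, at a ratio of 3.78 (3.08 to 4.69). Its log2 fold change against other epithelial classes was 7.43 ± 0.75 (edgeR adjusted p = 1.4e-05). Ptgs2, the inducible cyclooxygenase, was at 52.0 CPM (27 UMIs) and 142 CPM (203 UMIs), again higher in rat 2 (ratio 2.74, 1.83 to 4.25). Of its UMIs in the other epithelial classes there were 4 in rat 1 and 11 in rat 2 (edgeR adjusted p = 7.1e-06 for tuft-like against these classes). Hpgds was low in tuft-like cells, at 44.3 CPM (23 UMIs) and 36.5 CPM (52 UMIs), with a ratio between rats of 0.823 (0.495 to 1.41). It was lower still in the other epithelial cells pooled, with 8 and 10 UMIs, and the tuft-like level was 418 and 123 times theirs (181 to 1082 and 62.1 to 272, edgeR adjusted p = 1.2e-05). Rat 2 tuft-like cells also had more UMIs per cell, and 4 erythroid markers summed to 10988 CPM in them against 237 CPM in rat 1. The part that the erythroid transcripts have in these ratios was not tested, and software version and animal cannot be told apart.

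Il25 was the scarcest of the 9, with 25 UMIs in the classes tested. Tuft-like cells held 7 UMIs in 7 cells of rat 1 (13.5 CPM, 5.42 to 27.8) and 17 UMIs in 16 cells of rat 2 (11.9 CPM, 6.94 to 19.1). The only other UMI was in a goblet/Paneth-like cell of rat 1, which also carried 3 or more tuft markers, and no immune cell had a UMI. The tuft-like level was thus 1018 times that of the other epithelial cells in rat 1 (131 to 45897) and at least 135-fold higher in rat 2, against the limit of 3 counts (edgeR adjusted p = 0.0027). The call rests on few counts, and DESeq2 did not give it (adjusted p = 0.522). Its receptor gene Il17rb was well detected in the same cells, at 237 CPM (123 UMIs) and 449 CPM (640 UMIs), higher in rat 2 by a ratio of 1.89 (1.56 to 2.32). Enterocyte-like cells had 1.26 and 1.14 CPM of Il17rb, as 59 UMIs in 55 cells and 32 UMIs in 27 cells, and the tuft-like level was 252 and 298 times that of the other epithelial cells (187 to 342 and 224 to 404, edgeR adjusted p = 5.1e-07). The other chain of the receptor, Il17ra, had 0 UMIs in tuft-like cells of rat 1, which allows up to 5.78 CPM, and 31 UMIs (21.7 CPM) in rat 2. It was not past the threshold (log2 difference -0.45 ± 0.91, edgeR adjusted p = 0.944) and stood at 68.3 CPM (4 UMIs) and 253 CPM (65 UMIs) in myeloid-like cells.

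Chat had 12 UMIs in 12 tuft-like cells of rat 1 (23.1 CPM, 11.9 to 40.4) and 23 UMIs in 22 tuft-like cells of rat 2 (16.1 CPM, 10.2 to 24.2). Outside them 3 UMIs were found, all in rat 2: in an enterocyte-like, a CHE-like and a myeloid-like cell, each with 3 or more tuft markers. The tuft-like level was at least 582-fold higher than in other epithelial cells in rat 1 and 273 times theirs in rat 2 (67.5 to 2389, edgeR adjusted p = 4.0e-04). DESeq2 did not call it (adjusted p = 0.496). The partners of Chat at nerve endings were all but missing. Slc5a7, the choline transporter, had 0 UMIs in every class, and Slc18a3, the vesicular acetylcholine transporter whose gene lies within the Chat locus, had 1 UMI, in a tuft-like cell of rat 2. A count of 0 in tuft-like cells allows a level of up to 5.78 CPM in rat 1 and up to 2.10 CPM in rat 2.

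The tuft-like cells held 0.551% of the retained UMIs of rat 1 and 2.93% of those of rat 2, and most of the UMIs of 8 of the 9 genes. For Alox5ap the share was 76.6% of 928 UMIs in rat 1 (exact binomial 95% interval 73.8 to 79.3) and 80.5% of 2302 UMIs in rat 2 (78.8 to 82.1). For Ltc4s it was 70.7% (67.6 to 73.6) and 82.9% (81.1 to 84.6), and for Ptgs1 78.9% (70.8 to 85.6) and 89.7% (87.8 to 91.4). Il17rb was the one with the widest gap between the rats, at 59.4% (52.4 to 66.2) and 89.9% (87.4 to 92.0). The other epithelial cells held 71 of its 207 UMIs in rat 1 and 51 of 712 in rat 2, and the cause of the gap was not tested. Hpgds was the exception. Tuft-like cells held 44.2% of its UMIs in rat 1 (30.5 to 58.7) and 39.7% in rat 2 (31.3 to 48.6), and immune cells 40.4% (27.0 to 54.9) and 51.9% (43.0 to 60.7).

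Shares of cells with a UMI were read after every retained cell had been thinned to 1000 UMIs. Ltc4s was found in 75.9% of tuft-like cells of rat 1 (exact 95% interval 67.9 to 82.8) and 65.2% of rat 2 (57.9 to 72.0), and Alox5ap in 62.0% (53.4 to 70.2) and 62.6% (55.2 to 69.5). The intervals of the 2 rats overlap for both genes. For Ptgs1 and Il17rb they did not overlap at this equal depth, and how often this holds among all genes was not tested. Ptgs1 had a UMI in 19.7% (13.4 to 27.4) of tuft-like cells of rat 1 and 48.7% (41.3 to 56.1) of rat 2. Il17rb was at 19.0% (12.8 to 26.6) and 33.7% (27.0 to 40.9). These intervals cover the cells of 1 library per rat, and cells of a rat are not replicates. Alox5 was found in 10.2% and 12.3% of cells, Ptgs2 in 5.84% and 9.09%, and Hpgds, Chat and Il25 in at most 3.74% of cells in either rat. In enterocyte-like cells, which served as background, no gene of the 9 passed 0.373% of cells after thinning.

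Without thinning, at a median of 3440 and 6981 UMIs per cell, the shares in tuft-like cells were higher: 94.2% and 95.7% for Ltc4s, 83.9% and 94.1% for Alox5ap, 46.0% and 93.0% for Ptgs1, and 52.6% and 85.0% for Il17rb. Enterocyte-like cells, at medians of 11395.5 and 18477.5 UMIs, had a Ltc4s UMI in 1.57% and 2.16% of cells and fewer for each other gene. The lowest, median and highest count per tuft-like cell of rat 2 were 0, 7 and 66 UMIs for Alox5ap, 0, 6 and 32 for Ltc4s, and 0, 6 and 15 for Ptgs1. In rat 1 they were 0, 4 and 18 for Alox5ap, 0, 5 and 14 for Ltc4s, and 0, 0 and 5 for Ptgs1. The median tuft-like cell thus had several UMIs of Alox5ap and, taken separately, of Ltc4s.

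**Figure D2:**
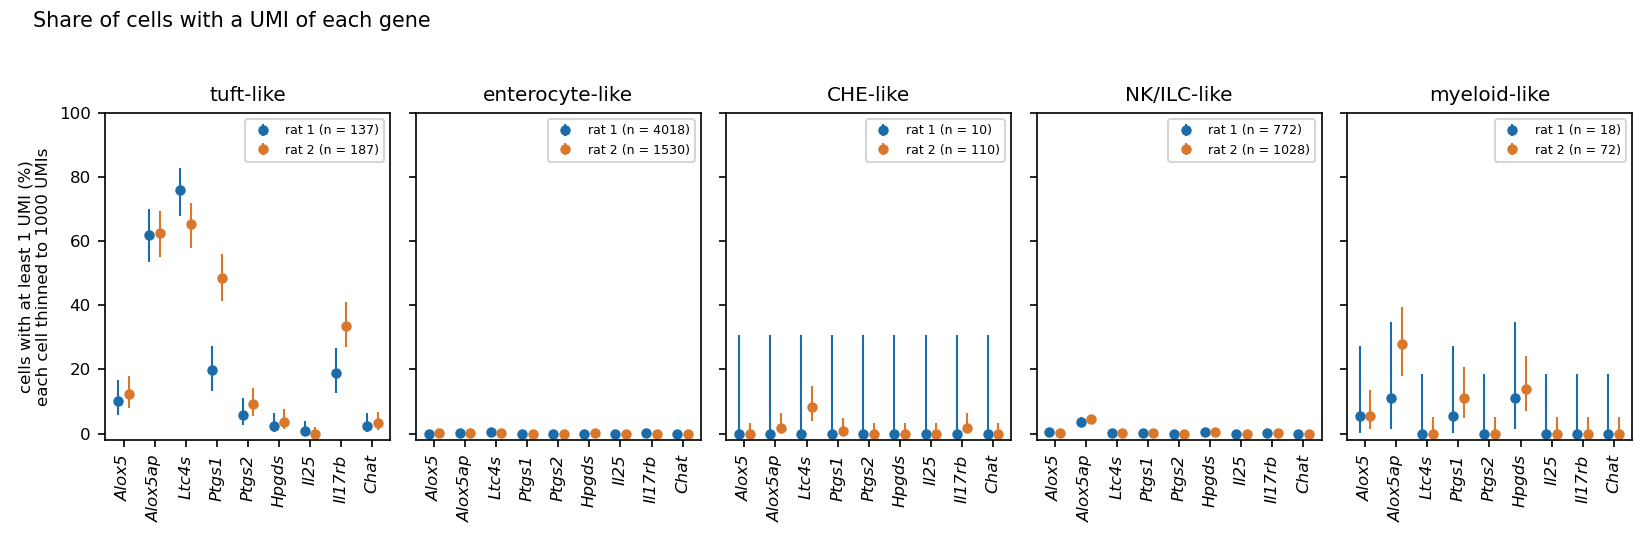
Share of cells with at least 1 UMI of each gene (%), each cell thinned to 1000 UMIs, in 5 cell classes of rat 1 (blue) and rat 2 (orange). Bars are exact 95% binomial intervals and n is the number of cells. Ltc4s and Alox5ap are found in 62.0% to 75.9% of tuft-like cells, no gene passes 0.373% of enterocyte-like cells, and Alox5ap reaches 27.8% of myeloid-like cells of rat 2.

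Part of the tuft-like cells had UMIs of several of the 9 genes at once. After thinning, 37 of 137 tuft-like cells of rat 1 (27.0%, 19.8 to 35.3) and 85 of 187 of rat 2 (45.5%, 38.2 to 52.9) had UMIs of 3 or more of the 9 genes, and 7 and 13 cells (5.11% and 6.95%) had none. Of other epithelial cells 99.4% and 98.7% had none, and of immune cells 96.9% and 95.3%. Alox5ap and Ltc4s shared 68 tuft-like cells of rat 1 (49.6%) and 80 of rat 2 (42.8%), and without thinning 82.5% and 91.4%. After thinning, Alox5ap by itself was found in 62.0% and 62.6% of these cells and Ltc4s in 75.9% and 65.2%. Whether the genes shared cells more often than their single shares alone would give was not tested. All 3 leukotriene genes together were seen without thinning in 28 cells of rat 1 (20.4%, 14.0 to 28.2) and 73 of rat 2 (39.0%, 32.0 to 46.4), where Alox5, the least abundant, sets the limit. Of 97 tuft-like cells of rat 2 with a Ptgs2 UMI, 96 also had a Ptgs1 UMI, as did 93.0% of all tuft-like cells of that rat. In rat 1, 15 of 21 did, against 46.0% of all its tuft-like cells.

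**Figure D3:**
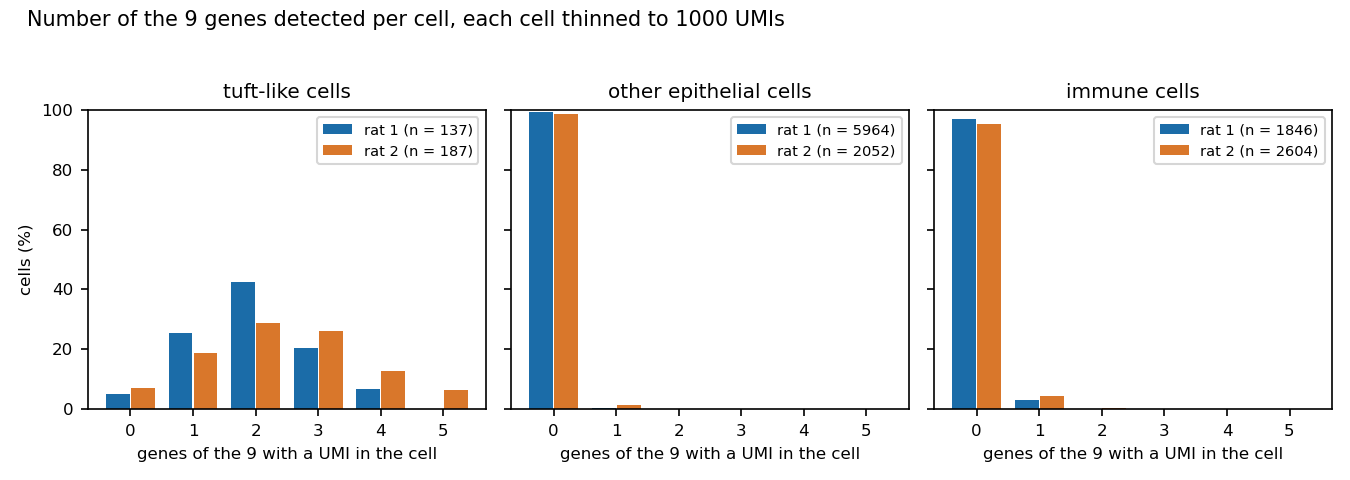
Percentage of cells (vertical axis) by the number of the 9 genes with a UMI in the cell (horizontal axis), each cell thinned to 1000 UMIs, in tuft-like, other epithelial and immune cells of rat 1 (blue) and rat 2 (orange). In tuft-like cells 2 genes is the most frequent number in both rats, and at least 95.3% of other epithelial and immune cells have none.

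Outside the tuft-like class, part of the epithelial UMIs lay in cells that themselves carried tuft transcripts. Among other epithelial cells, 20 of rat 1 and 15 of rat 2 had UMIs of 3 or more tuft markers. They held 107 of the 122 Alox5ap UMIs of rat 1 (87.7%, 80.5 to 93.0) and 21 of 64 of rat 2 (32.8%, 21.6 to 45.7), and 66.7% and 65.7% of the Ptgs1 UMIs (41.0 to 86.7 and 53.4 to 76.7). All 4 Ptgs2 UMIs of rat 1 and 9 of the 11 of rat 2 were in them too. Their share was lower for Ltc4s, at 30.0% (24.2 to 36.2) in rat 1 and 12.4% (8.85 to 16.8) in rat 2. For Il17rb it was 23.9% (14.6 to 35.5) and 51.0% (36.6 to 65.2), and for Hpgds 1 of 8 and 1 of 10 UMIs. Doublets were not removed, and whether such cells hold material of more than 1 cell was not tested.

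The CHE-like cells of rat 2 held 204 UMIs of Ltc4s (166 CPM, 144 to 190), which is 69.3 times the level of enterocyte-like cells of the same rat (52.3 to 92.8) and below that of tuft-like cells by a ratio of 6.31 (5.45 to 7.34). Of the 204 UMIs, 192 lay in 28 of the 102 CHE-like cells with fewer than 3 tuft markers. Among these 28 cells 21 had no tuft marker and 1 had an Alox5ap UMI, 10 had 5 or more Ltc4s UMIs, and the highest, with 47, had no Alox5ap UMI and no tuft marker. For comparison, Ltc4s and Alox5ap stood at 0.906 and 0.805 UMIs to 1 in tuft-like cells of rat 1 and rat 2 and at 13.6 to 1 in CHE-like cells of rat 2 (8.05 to 24.7). The 31 Ptgs1 UMIs of the CHE-like cells of rat 2 were different: all lay in the 8 cells with 3 or more tuft markers. The 10 CHE-like cells of rat 1 had 0 UMIs of all 9 genes, which allows up to 28.2 CPM each. For Ltc4s this limit lies below the 166 CPM of rat 2 (144 to 190). The Ltc4s level of CHE-like cells thus rests on 1 rat and was not seen in the 10 cells of the other.

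Enterocytes were not even in Ltc4s either. In 1 enterocyte-like cluster, led by Apoa4, Pmp22, Clca4 and Ada, it stood at 21.6 CPM in rat 1 (84 UMIs in 50 cells) and 8.93 CPM in rat 2 (52 UMIs in 28 cells). In the largest enterocyte-like cluster, led by Rbp2 and Fabp1, it was at 0.177 CPM (3 UMIs) and 0.700 CPM (6 UMIs, all in 1 cell), a ratio of 122 in rat 1 (40.3 to 603) and 12.8 in rat 2 (5.48 to 36.4). Il17rb did not differ between these clusters beyond counting error (ratios of 1.52, 0.544 to 3.75, and 0.736, 0.227 to 2.12). Both clusters come from the data themselves, so these ratios are a description.

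**Figure D4:**
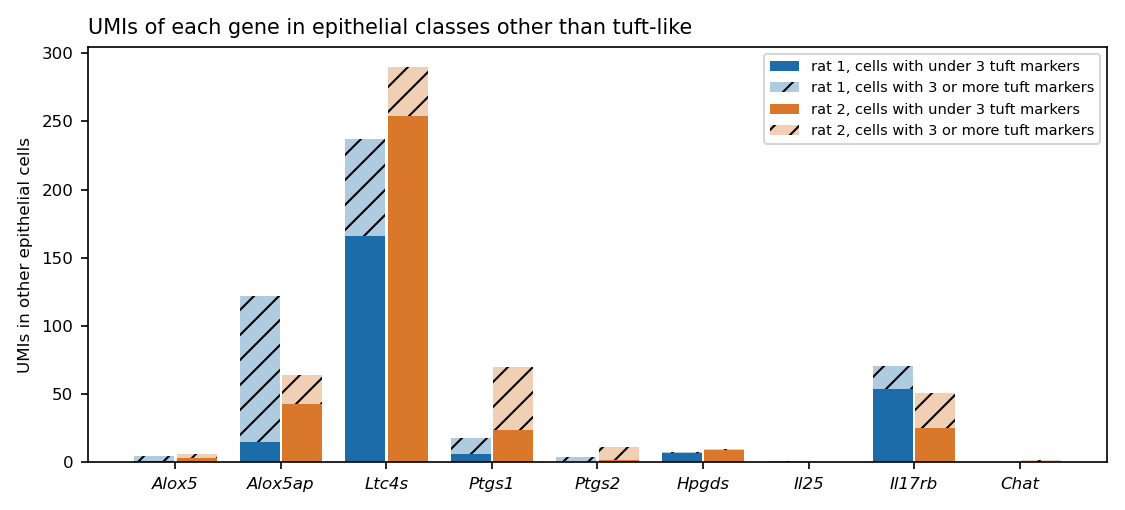
UMIs of each gene in epithelial cells outside the tuft-like class, for rat 1 (blue) and rat 2 (orange), with plain bars for cells with fewer than 3 tuft markers and hatched bars for cells with 3 or more. Ltc4s has the tallest plain bars, with 166 UMIs in rat 1 and 254 in rat 2, while most Alox5ap UMIs of rat 1 and most Ptgs1 UMIs of both rats are hatched.

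Against the epithelial classes other than tuft, 2 of the 9 genes were higher in immune classes, Alox5ap and Hpgds, and 1 was lower, Ltc4s. Alox5, Ptgs1 and Il17rb did not pass the threshold, and Ptgs2, Il25 and Chat had too few UMIs for an estimate. In this comparison 33.7% of all genes tested were called, 18% higher and 15.7% lower, so 3 of 9 is close to the share of all genes. Alox5ap was at 188 CPM in myeloid-like cells of rat 1 (93.8 to 336) and 468 CPM in rat 2 (388 to 559), at 37.6 and 49.6 CPM in NK/ILC-like cells and at 7.68 and 20.8 CPM in T cell-like cells. Its log2 fold change over the epithelial classes was 3.97 ± 0.41 (edgeR adjusted p = 6.1e-05), and it was higher in both rats. The call was lost among cells with over 5000 UMIs (edgeR adjusted p = 0.339), where the myeloid-like class, at 1 and 31 cells, entered no test. It was also lost with classes from marker UMIs per cell (0.0571), which have a single leukocyte class and a single epithelial class besides tuft-like. Hpgds was highest of all classes in myeloid-like cells, at 85.4 CPM (27.7 to 199) and 117 CPM (78.9 to 167), and its tuft-like level was 0.519 times that in rat 1 (0.193 to 1.75) and 0.312 times in rat 2 (0.195 to 0.506). Over all immune cells its level was 63.2 times that of the other epithelial cells in rat 1 (26.9 to 165) and 26.6 times in rat 2 (13.6 to 58.0, edgeR adjusted p = 1.3e-04). With classes from marker UMIs per cell its adjusted p was 0.0718. Without the myeloid-like class both genes were still called, with lower log2 fold changes of 2.78 for Alox5ap (adjusted p = 4.1e-04) and 4.80 for Hpgds (adjusted p = 0.00102).

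Ltc4s was close to absent from immune cells, with 6 UMIs in rat 1 and 15 in rat 2, and was lower there than in epithelium (log2 fold change -2.03 ± 0.72, edgeR adjusted p = 0.0419). This call was lost when the CHE-like class was left out (log2 fold change -1.20, adjusted p = 0.102). Myeloid-like cells also had Ptgs1 at 51.3 CPM (3 UMIs) and 136 CPM (35 UMIs) and Alox5 at 34.2 CPM (2 UMIs) and 31.2 CPM (8 UMIs). Of the Ptgs1 UMIs of rat 2, 11 lay in the 1 myeloid-like cell with 3 or more tuft markers. Myeloid-like cells thus held transcripts of 5-lipoxygenase, FLAP and a cyclooxygenase, with Ltc4s at 0 and 3 UMIs. No class was named from mast cell markers, a leukocyte type known for these enzymes.

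Directly against the immune classes, 8 of the 9 genes were higher in tuft-like cells (edgeR adjusted p = 8.1e-06 to 0.0073), where 16.7% of all genes tested were called, 11.6% higher and 5.09% lower. DESeq2 did not call Il25 and Chat here (adjusted p = 0.445 and 0.424). The log2 fold changes were 8.71 ± 0.84 for Ltc4s, 7.03 ± 0.59 for Il17rb, 6.40 ± 0.88 for Ptgs1, 5.66 ± 0.70 for Alox5 and 4.56 ± 0.50 for Alox5ap. Hpgds was the gene that did not pass, at 1.63 ± 0.54 (edgeR adjusted p = 0.0572). With the rat as a block, since both classes come from the same animals, its adjusted p was 0.0301, and without the myeloid-like class its log2 fold change was 3.03 (adjusted p = 0.00787). Against myeloid-like cells alone the excess was smaller for several genes. The ratio of CPM in rat 1 and rat 2 was 7.29 and 2.78 for Alox5ap and 3.80 and 5.40 for Ptgs1. For Alox5 it was 2.25 (0.585 to 19.3) and 4.36 (2.17 to 10.2). Ptgs2 had a ratio of 1.52 in rat 1 (0.382 to 13.2) and 0 myeloid-like UMIs in rat 2. Ltc4s and Il17rb stood at 89.5 and 28.8 times the myeloid-like level in rat 2, with 0 myeloid-like UMIs in rat 1. That level rests on 3 UMIs of Ltc4s and 4 of Il17rb. Of these, 2 of Ltc4s and all 4 of Il17rb lay in the 1 myeloid-like cell with 3 or more tuft markers. Transcripts of leukocyte markers in the tuft-like cells were uneven by gene. At 1000 UMIs per cell, Ptprc had a UMI in 0.730% and 2.14% of tuft-like cells against 0.498% and 1.11% of enterocyte-like cells. Without thinning, at the lower depth of the tuft-like cells, the shares were 2.19% and 8.02% against 3.04% and 7.39%. In tuft-like cells 2 of 9 and 3 of 9 myeloid markers had any UMI, with a summed level of 3.85 and 6.31 CPM. Of 7 mast cell markers Kit alone had UMIs (46.2 and 16.8 CPM). The 5 general leukocyte markers summed to 424 and 787 CPM, of which Rac2 made up 364 and 712 CPM. Rac2 was also at 499 and 426 CPM in CHE-like cells, where Ptprc was at 0 and 23.6 CPM. The 7 T cell markers summed to 191 and 181 CPM in tuft-like cells, of which Cd3g made up 141 and 147 CPM. The part of these transcripts in the results was not tested beyond a single setting. It left out tuft-like cells with Ptprc or Cd3 UMIs and immune cells with Epcam UMIs. Il25 gave no value under this setting, and the calls of the others among the 8 genes were kept. Of the tuft-like cells, 88 of 137 in rat 1 and 96 of 187 in rat 2 remained. Of the myeloid-like cells, 9 of 18 and 52 of 72 remained.

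The wider pathway did not move as a whole with these genes. Of 25 further genes of eicosanoid synthesis and breakdown, 23 were in the files and 17 passed the filter on low counts. In tuft-like against other epithelial cells 2 of them were higher and 1 lower, 13 did not pass the threshold and 1 had no estimate. Over all genes tested in this comparison 5.84% were higher and 0.727% lower. The median log2 difference of those with an estimate was 0.18 against 0.057 over all genes tested. Pla2g4a, the cytosolic phospholipase that frees arachidonic acid, was at 173 and 90.4 CPM in tuft-like cells, and Tbxas1, the thromboxane synthase that uses the same precursor as Hpgds, at 352 and 621 CPM. Outside tuft-like cells the highest level of Tbxas1 was in the myeloid-like class of rat 2, at 89.6 CPM, with 0 UMIs in that of rat 1. The gene that was lower, Hpgd, encodes the enzyme that inactivates prostaglandins. It was at 30.8 and 25.2 CPM in tuft-like cells against 241 and 156 CPM in enterocyte-like cells, and fell by 2.62 ± 0.69 on the log2 scale against the other epithelial classes (edgeR adjusted p = 0.0344).

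Receptors for these mediators were scarce. Of 14 receptor genes 11 were under the filter. None of the 3 tested was called in tuft-like against other epithelial cells, where 6.57% of all genes tested were called. Cysltr1 and Cysltr2, which bind cysteinyl leukotrienes, had 0 UMIs in tuft-like cells, and in immune cells Cysltr2 reached 3.58 and 2.38 CPM in the NK/ILC-like class. Ptger2, a receptor for prostaglandin E, was higher in immune than in epithelial classes (19.7 and 21.4 CPM in NK/ILC-like cells, edgeR adjusted p = 0.0313). So was the leukotriene B receptor Ltb4r (2.69 and 2.72 CPM in NK/ILC-like cells, edgeR adjusted p = 0.0112). The Ltb4r levels rest on few counts, since 1 UMI in NK/ILC-like cells is 0.895 and 0.340 CPM. Of all genes tested in this comparison 18% were higher. Ptgdr2 and Oxgr1 had 0 UMIs in the named classes.

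Of 16 type 2 cytokines and receptors 9 were tested and 1 was higher in tuft-like cells than in other epithelium, Il4ra. Of all genes tested 5.84% were higher in this comparison. Il4ra, listed in the files as Il4r, encodes the chain shared by the interleukin-4 and interleukin-13 receptors. It was at 59.7 and 178 CPM in tuft-like cells against 61.5 and 73.0 CPM in enterocyte-like cells. Its log2 fold change over the mean of the other epithelial classes was 2.22 ± 0.59 (edgeR adjusted p = 0.0354), and it was lowest in EEC-like cells, at 0 and 6.12 CPM. Of the cytokines on the list, Il13, Il5, Il9 and Tslp had 0 UMIs in the named classes, and Il4 had 4 UMIs in NK/ILC-like cells of rat 1 and 26 in rat 2. Il33 and Areg were tested and not past the threshold, at 7.70 and 4.21 CPM and at 0 and 21.0 CPM in tuft-like cells. Of 7 acetylcholine genes 3 were tested in tuft-like cells and none was called, where 6.57% of all genes tested were called. The median log2 differences of these lists were -0.45 for type 2 genes and -0.76 for acetylcholine genes.

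Immune classes differed from the epithelial classes other than tuft in 6 of the 17 synthesis and breakdown genes, all lower, where 33.7% of all genes tested were called and 15.7% were lower. Among the 6 were Ptgr1, a prostaglandin reductase (log2 fold change -2.47 ± 0.33, edgeR adjusted p = 2.2e-04), and Hpgd (-2.75 ± 0.44, adjusted p = 5.9e-04). Of the 9 type 2 genes Il2rg, the common cytokine receptor chain, was higher, and of the acetylcholine genes Slc44a1 and Bche were lower. Against the immune classes, tuft-like cells were higher in 4 synthesis and breakdown genes (Tbxas1, Pla2g4a, Ptgr1 and Mgst2) of the 17, where 11.6% of all genes tested were higher, and in Crlf2 and Slc44a1, and lower in Il2rg (-4.82 ± 1.30, adjusted p = 0.0215).

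**Figure D5:**
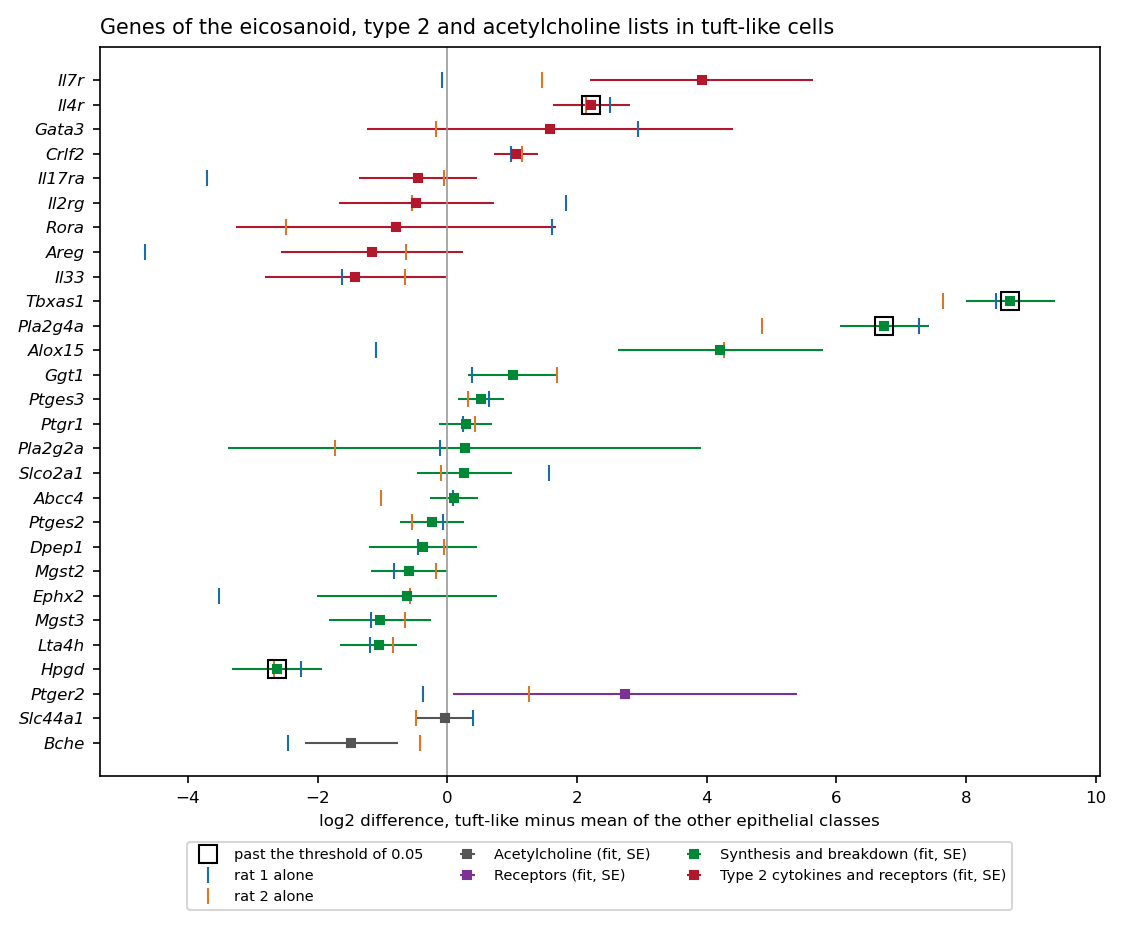
Difference between tuft-like cells and the mean of the other epithelial classes (log2, horizontal axis) for each gene of the 4 lists with an estimate. Squares are the fitted value with its standard error, ticks the value of each rat alone, and boxes mark genes past the threshold of 0.05. Of the boxed genes, Tbxas1, Pla2g4a and Il4r lie to the right of 0 and Hpgd to the left.

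The genes most like each of the 9 across the 18 sums of rat and class, by Pearson correlation of log2(CPM + 1) over 12763 genes, are given as a description, since all sums share 2 libraries and tuft-like cells alone can set a high value. Il17rb was closest to Gnat3, AC120568.1 and Dclk1 (r = 0.983, 0.981 and 0.977), and Chat to Hmx3, Itprid1 and Trpm5 (0.995, 0.991 and 0.989), of which Gnat3, Dclk1 and Trpm5 are tuft markers. Ltc4s was closest to Nrgn and the tuft marker Rgs13 (0.941 and 0.929), and Ptgs1 to Slco3a1 (0.939). Ptgs2 was closest to Camp (0.978) and Alox5 to Adgrg6 (0.968). Alox5ap and Hpgds had each other as the closest gene (0.932), and Alox5 came next for Alox5ap (0.916). Il25 had fewer than the 30 UMIs set as a minimum.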

How the data were processed

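Single-cell suspensions of jejunal epithelium from 2 rats were run on a 10x Genomics 3′ platform, 1 library per rat. The values are raw UMI counts per gene and barcode, which the authors made with Cell Ranger on the rn6 build and deposited unnormalized. A 3′ UMI counts transcripts without regard to their length, and levels were not ranked between genes. Libraries held 99986348 and 66469907 UMIs, and 77.7% and 66.9% of barcodes were retained. Intervals cover counting error only.

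Retained cells were integrated and clustered with Seurat 5.3.0 (2000 variable genes, 20 components, resolution 0.5), with 71 genes, the 9 genes and the 4 lists among them, left out of the variable genes, and leukocyte-led clusters were clustered again. Clusters were named from marker lists, by thresholds set after the clusters were seen. Doublets were kept, since Scrublet marked 3.99% of the rat 1 cells but 0.0362% in rat 2, where it has not worked. UMIs were summed per rat and class (9 classes with at least 5 cells in each rat, 18 sums) and tested with edgeR 4.0.16 (TMM, filterByExpr, quasi-likelihood test, Benjamini-Hochberg adjustment, threshold 0.05). Estimates with a standard error over 10 were not given.

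Both rats contributed to each class, so sums of the same animal are paired. Over 36 pairs of classes and 10723 genes, deviations of the same rat correlated at a median r of 0.254 (lowest 0.0409, highest 0.647), and the main model has no block. Named list genes were those past the threshold with the largest change, up to 4 per list, and fixed partners of the 9 genes. Ptger2, Ltb4r, Il2rg, Bche, Mgst2, Crlf2, Slc44a1, Ptgr1, Cysltr1, Cysltr2, Il4, Il33, Areg and the other cytokines and receptors at 0 UMIs were chosen after their values were seen. The genes and lists were chosen with earlier results of these data known.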

Additional observations from a re-analysis of the deposited data

How the results depend on the processing

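All 9 genes kept their direction in tuft-like against other epithelial and against immune classes under every alternative that gave a value, including each rat alone, for which no test was possible. In the first comparison the count of all genes called, 704, was 328 with over 5000 UMIs and 200 to 5800 genes per cell, 1059 without integration and 113 with classes from marker UMIs per cell. There Ptgs1 and Hpgds were not past the threshold (adjusted p = 0.0726 and 0.0728). With DESeq2 1.42.0, Il25 and Chat were lost against epithelial classes (0.522 and 0.496) and immune classes (0.445 and 0.424). The stricter cell filter left 14 tuft-like cells in rat 1 and gave no value for Il25, nor for Hpgds against epithelial classes. Leaving out tuft-like cells with Ptprc or Cd3 UMIs and immune cells with Epcam UMIs also gave no value for Il25.

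The immune against epithelial calls were the least stable. With over 5000 UMIs the myeloid-like class, at 1 and 31 cells, entered no test, and the marker classes had a single leukocyte class. Of the 2 higher and 1 lower genes, 0 and 0 were called with over 5000 UMIs and with marker classes, and the lower call was 0 without CHE-like cells, while all genes called went from 3616 to 158 and 2396. Il17rb turned to -0.21 with marker classes and Ptgs1 to -0.97 without myeloid-like cells, neither past the threshold. Calls were also gained: Alox5 without a filter on low counts (adjusted p = 0.0232) and with DESeq2 (0.0119), and Il17rb without CHE-like cells (0.0419). In tuft-like against immune classes 1794 genes were called, 269 with over 5000 UMIs and 2766 with the rat as replicate block. The block brought Hpgds past the threshold (adjusted p = 0.0301), as did 4 other settings, and changed no other call among the 9 genes. Over its alternatives the adjusted p of Hpgds ranged from 0.00547 to 0.112. The number of genes found in at least 10% of tuft-like cells, 5 in each rat, was 2 in rat 1 with over 5000 UMIs and 8 in rat 2 without thinning. The causes were not tested. The settings that left out the CHE-like or myeloid-like class, or stem/cycling-like cells poor in epithelial markers, were chosen after seeing the data.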

Other observations

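Barcodes that were not retained, 2688 in rat 1 and 2729 in rat 2, also held UMIs of 7 of the 9 genes. Alox5ap was at 5.61 and 2.08 CPM there, Ltc4s at 2.63 and 3.03 CPM, and Ptgs1 at 0.701 and 4.04 CPM, while Il25 and Chat had 0 UMIs in both rats. In the erythroid-like and unnamed clusters, which entered no comparison, 27 and 16 UMIs of Alox5ap and 24 and 3 UMIs of Ltc4s were counted.

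Of the 84 and 52 Ltc4s UMIs in the Apoa4-led enterocyte-like cluster, 81 in rat 1 and 51 in rat 2 lay in cells with fewer than 3 tuft markers. The same cells held 0 and 4 UMIs of Alox5ap.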
